A study of Mus musculus with 18 samples.

Results

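The transcripts of 6 genes known as products of the oocyte were measured in libraries of the somatic cells that surround it: the growth factor genes Gdf9, Bmp15 and Fgf8 and the zona pellucida genes Zp1, Zp2 and Zp3. They were taken by name from the table of read counts, where all 6 matched a row among 41325 entries, and all 6 passed the filter on low counts that left 19941 genes for testing. The libraries came from ovaries of mice whose genotype is labelled WT, with strain and age not given in the sources used here. Mural granulosa cells, which line the follicle wall, and cumulus cells, which enclose the oocyte, were collected 0, 4 and 12 h after injection of human chorionic gonadotropin (hCG), a hormone that acts through the luteinizing hormone receptor and sets off ovulation. Each of the 6 groups held 3 libraries, 18 in all.

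GDF9 and BMP15 are secreted ligands of the transforming growth factor beta family. They are made by the growing oocyte and act on neighbouring granulosa cells through type I and type II serine-threonine kinase receptors and SMAD proteins. FGF8, a fibroblast growth factor from the same cell, works with BMP15 to promote glycolysis in cumulus cells. ZP1, ZP2 and ZP3 are the glycoproteins of the zona pellucida, the coat between oocyte and cumulus through which the cumulus cells send thin projections; ZP2 and ZP3 form its filaments, which ZP1 cross-links, and ZP2 is cleaved after fertilization. In samples of the follicle these transcripts are commonly used as markers of oocyte RNA.

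In the GENCODE annotation of the mouse genome (build GRCm38), all 6 are protein-coding genes that overlap no other annotated gene. Gdf9 lies on chromosome 11 (53431023 to 53437904, plus strand), Bmp15 on chromosome X (6314107 to 6320721, minus strand) and Fgf8 on chromosome 19 (45736798 to 45742915, minus strand). Zp1 lies on chromosome 19 (10914287 to 10920632, minus strand), Zp2 on chromosome 7 (120126772 to 120145291, minus strand) and Zp3 on chromosome 5 (135980099 to 135988624, plus strand). Values are sums over a gene's exons, so they carry no information on isoforms.

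Because the 6 genes moved together across libraries, the 250 bases before the start site are shown for the 2 of 6 with an entry in the RefSeq promoter table (GRCm38.p6). The Zp3 sequence covers chr5:135979855-135980104 on the plus strand and the Bmp15 sequence chrX:6320725-6320974 on the minus strand. Capitals mark the E-box CANNTG, the kind of site that the oocyte factor FIGLA is known to use at zona genes, and TAATTA, a kind of site known for the oocyte homeobox factor NOBOX. Both run 5′ to 3′ and end at the base before the RefSeq start site. For Zp3 this site differs from the GENCODE start at 135980099, so the last printed bases lie inside the GENCODE gene. Distances below are to the RefSeq start site.
Zp3: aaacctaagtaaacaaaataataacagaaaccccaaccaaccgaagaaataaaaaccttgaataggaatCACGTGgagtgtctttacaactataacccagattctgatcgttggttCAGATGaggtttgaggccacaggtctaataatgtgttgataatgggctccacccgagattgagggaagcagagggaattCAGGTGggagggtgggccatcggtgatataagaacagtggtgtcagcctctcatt
Bmp15: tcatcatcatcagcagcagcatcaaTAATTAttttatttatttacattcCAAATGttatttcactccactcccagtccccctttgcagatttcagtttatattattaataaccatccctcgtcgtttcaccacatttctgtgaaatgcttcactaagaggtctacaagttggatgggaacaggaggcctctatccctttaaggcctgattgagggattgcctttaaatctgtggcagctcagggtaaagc
The Zp3 sequence held 3 matches to the E-box, which began 181, 134 and 55 bases before the start site; the first of them is the palindrome CACGTG. That of Bmp15 held 1 E-box at 201 bases and 1 match to TAATTA at 225 bases. TAATTG, searched as a second NOBOX-type site, matched in neither window. Both strands were searched. Among 32851 promoter windows of the same length, CANNTG occurred in 66.22%, CACGTG, which is itself a CANNTG, in 6.021%, TAATTA in 4.84% and TAATTG in 7.169%. These are matches of letters in a window, not measured sites.

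Totals of uniquely mapped reads per library ran from 32.2 M to 47.9 M (mega). Levels are given as counts per M scaled counts (CPM). A gene with 0 counts could have up to 3, which in these libraries came to between 0.0585 and 0.0999 CPM; this limit covers counting error only. Groups follow the library titles, because of the 9 titles that name cumulus cells 8 carry the mural cell type in their characteristics and 1 carries none. The mural-enriched markers Lhcgr, Cyp11a1 and Nppc together ran from 1453 to 5549 CPM in the mural libraries and from 18.8 to 381 CPM in the cumulus libraries. Granulosa markers (Fshr, Foxl2, Inha, Cyp19a1, Nr5a2, Amh) summed to at least 1969 CPM in every library. Sums of theca markers ran from 137 to 294 CPM in mural libraries and of erythroid markers from 87.6 to 732 CPM, and leukocyte markers summed to 2.64 to 13.98 CPM over all 18. The cumulus libraries of 12 h, the lowest in oocyte transcripts, stood apart from those of 0 and 4 h in other measures too. Their mural-enriched markers summed to 344 to 381 CPM against 18.8 to 74.3 CPM at the earlier times. Theca markers summed to 108 to 114 against 26.4 to 52.6 CPM, and erythroid markers to 17.9 to 109 against 5.95 to 17.7 CPM. Single markers of these sums went both ways between 0 and 12 h. Of the 3 mural-enriched markers 1 was called higher and 2 lower, and Cyp11a1 carried the sum (mean 11.1 to 356 CPM). Of 4 theca markers 2 were higher and 1 lower, and of 5 erythroid markers 4 were higher and 1 lower. Of all genes, 31.2% were higher and 32.9% lower. Granulosa markers summed to 1969 to 2369 CPM against 3375 to 7155 CPM, with 6 of 6 called lower than at 0 h, and the share of mitochondrial counts was 2.52% to 2.98% against 4.35% to 12.8%. The 4 endothelial markers summed to 164 to 201 CPM at 12 h against 9.20 to 48.2 CPM before, but they went both ways: Cdh5, at a mean of 164 CPM, carried the sum and with Kdr was called higher than at 0 h, while Pecam1 (2.78 CPM) and Tek (0.490 CPM) were called lower. The part of these measures in the results was not tested. Between libraries of one group, differences exceeded counting error, with a chi-square per degree of freedom of 7.81 to 247, highest between cumulus libraries at 4 h. The labels do not tie the libraries of a group to separate mice, so the p-values reflect the spread over these libraries, and that spread may be technical. In bulk RNA, fewer oocytes in a sample and less RNA per oocyte cannot be told apart, and the labels do not say whether oocytes were removed from the cumulus samples.

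Before hCG, all 6 transcripts were present in cumulus and mural libraries alike, with fitted levels from 3.19 (Zp2) to 6.13 (Fgf8) times as high in cumulus libraries. For Gdf9, the 3 cumulus libraries at 0 h had 74.1, 341 and 361 CPM and the 3 mural libraries 24.6, 43.8 and 109 CPM. The lowest cumulus library was thus below the highest mural library. Bmp15 followed the same order, with 42.7, 217 and 240 CPM in cumulus and 15.3, 28.4 and 68.8 CPM in mural libraries. Fgf8 was scarce, with 0.983, 4.64 and 4.39 CPM in cumulus and 0.351, 0.428 and 0.852 CPM in mural libraries, and it was the only one of the 6 whose ranges did not overlap.

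The zona transcripts had the same shape. Zp1, which encodes the cross-linking protein, had 19.03, 87.2 and 101 CPM in cumulus libraries against 8.14, 11.1 and 28.9 CPM in mural libraries at 0 h. Zp2 had 30.3, 170 and 171 CPM against 17.3, 28.1 and 71.0 CPM. Zp3, which with ZP2 builds the filaments, had 42.0, 176 and 176 CPM against 13.5, 22.7 and 54.0 CPM. In each case replicate 1 of the cumulus group was the low library, and replicate 3 of the mural group the high one. Cumulus replicate 1 also had the largest share of mitochondrial counts, 12.8% against 8.49% and 8.50%; its part in the result was not tested.

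By the quasi-likelihood test of edgeR, with p adjusted by Benjamini-Hochberg over all genes tested and called at an adjusted p under 0.05, all 6 were higher in cumulus than in mural libraries at 0 h, where 21.5% of all genes tested were. The difference was largest for Fgf8, at 2.62 ± 0.66 log2 units (fitted change ± SE; edgeR adjusted p 0.00372). It was 2.13 ± 0.66 for Gdf9 (edgeR adjusted p 0.014) and 2.15 ± 0.65 for Bmp15 (0.0124). Among zona genes the difference was 2.11 ± 0.68 for Zp1 (edgeR adjusted p 0.0195), 2.13 ± 0.62 for Zp3 (0.0102) and 1.67 ± 0.66 for Zp2 (0.0453). Their median was 2.13 against -0.03 over all genes. For all but Fgf8 the call was lost without mural replicate 1 or 2 or cumulus replicate 2 or 3, with the 2 groups fitted alone, or with no filter on low counts; then 1 of 6 was called, and with library totals it was lost for Zp1 (edgeR adjusted p 0.0502) and for Zp2, which also lost it with DESeq2 or voom (adjusted p 0.0713 to 0.0892 over the 3).

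**Figure D1:**
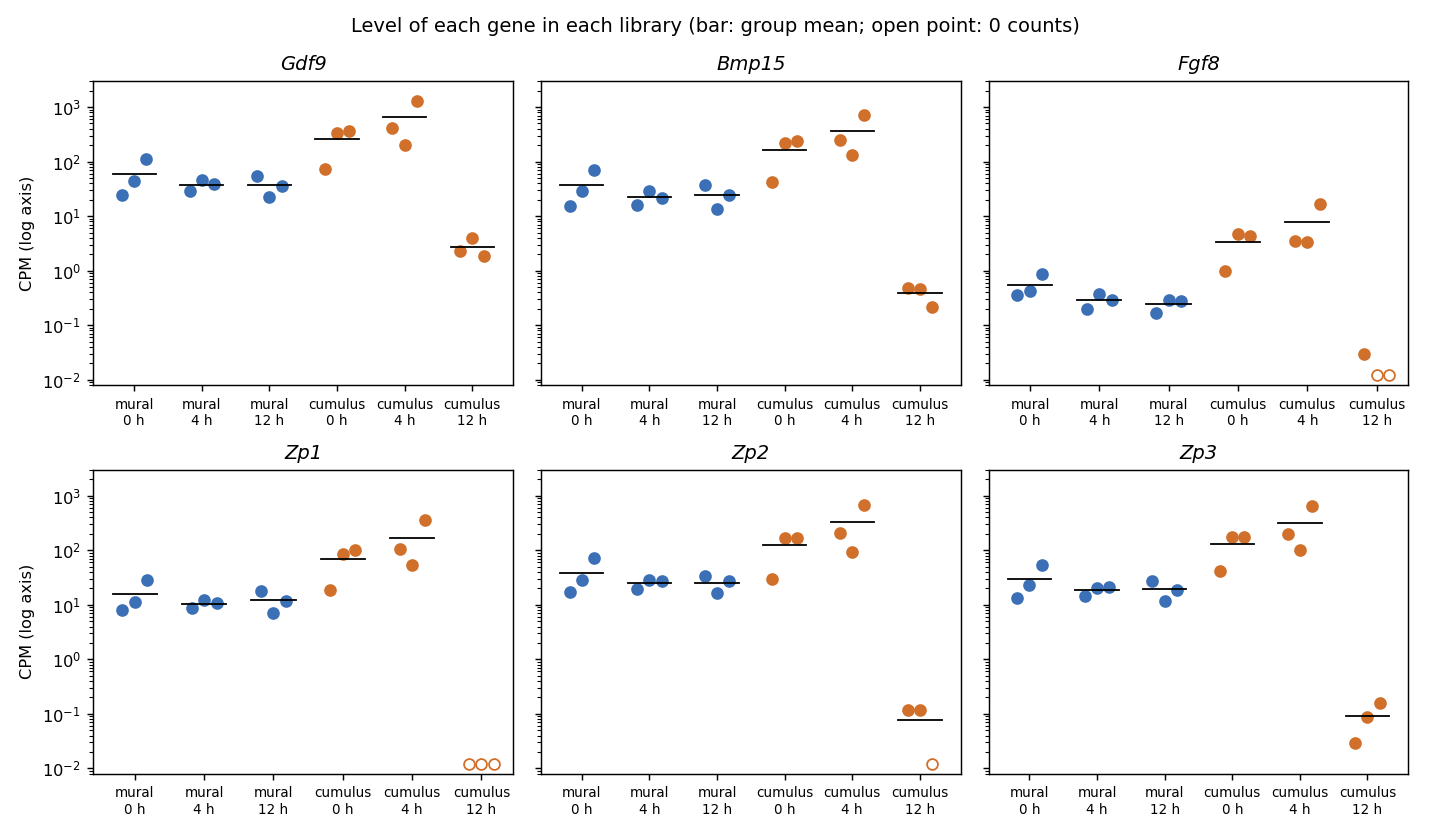
Level of each gene in each of the 18 libraries, in CPM on a log axis; each point is a library, bars are group means and open points are libraries with 0 counts. In all 6 panels the cumulus libraries at 0 and 4 h spread over a wide range, those at 12 h lie lowest, and the mural libraries of the 3 times overlap, except for Fgf8 between 0 and 12 h.

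Levels of different genes are compared per kilobase of merged exons. In cumulus libraries at 0 h the order was Gdf9 (127 ± 79.0 CPM per kilobase, SD, n = 3), Zp3 (99.1 ± 58.4), Bmp15 (54.4 ± 35.2), Zp2 (45.4 ± 29.7), Zp1 (34.9 ± 22.2) and Fgf8 (2.47 ± 1.51). Among the first 5, neighbours in this order differed by less than the larger of their SDs, which reflect the difference in total between libraries. Within each of the 3 libraries the order was the same. In replicate 1, the lowest, it ran 36.5, 31.7, 13.9, 11.1 and 9.61 CPM per kilobase from Gdf9 to Zp1, with Fgf8 at 0.728. Per kilobase of the longest transcript, Bmp15 and Zp2 were nearly level in replicate 2 (70.94 and 70.92). In mural libraries at 0 h the order was Gdf9 (29.2 ± 21.9), Zp3 (22.7 ± 16.0), Zp2 (14.2 ± 10.4), Bmp15 (12.3 ± 9.11), Zp1 (8.09 ± 5.68) and Fgf8 (0.403 ± 0.200 CPM per kilobase), so that Zp2 and Bmp15 changed places.

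At 4 h the fitted difference between the cell types was larger than at 0 h for each of the 6. The widening itself was not called for any of them (edgeR interaction test, adjusted p 0.135 to 0.187), where 14% of all genes were called. The groups at 4 h did not overlap for any of the 6. How often the ranges of other genes overlapped is not given here. The cumulus libraries had 421, 206 and 1305 CPM of Gdf9 against 29.0, 45.8 and 38.7 CPM in mural libraries. Bmp15 had 254, 134 and 720 against 15.8, 29.1 and 21.2 CPM. Fgf8 had 3.48, 3.34 and 16.5 against 0.200, 0.381 and 0.294 CPM. Cumulus replicate 3 was the high library for each of these ligands, and its 6 genes together made up 0.375% of its counts.

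Zona transcripts repeated this order at 4 h. Zp1 had 107, 53.1 and 354 CPM in cumulus and 8.72, 12.1 and 10.8 CPM in mural libraries. Zp2 had 211, 92.9 and 670 against 19.6, 28.5 and 27.6 CPM, and Zp3 201, 101 and 655 against 14.3, 20.7 and 21.0 CPM. The library with the most oocyte transcripts was the one with the fewest granulosa markers: the markers summed to 4956, 5645 and 3375 CPM in cumulus replicates 1 to 3. Its part in the result was not tested.

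All 6 were called higher in cumulus than in mural libraries at 4 h, as were 27.6% of all genes. The change was 4.09 ± 0.72 log2 units for Gdf9 (edgeR adjusted p 0.000156), 4.07 ± 0.71 for Bmp15 (0.000149) and 4.72 ± 0.74 for Fgf8 (5.42e-05). For the zona genes it was 4.02 ± 0.74 for Zp1 (edgeR adjusted p 0.000339), 3.68 ± 0.71 for Zp2 (0.000362) and 4.10 ± 0.68 for Zp3 (9.6e-05). As at 0 h, Fgf8 had the largest difference and Zp2 the smallest.

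Within cumulus cells, the rise of the mean from 0 to 4 h was no larger than the spread between libraries. Mean Gdf9 was 259 ± 160 CPM (SD, n = 3) at 0 h and 644 ± 582 CPM at 4 h, and the ranges of all 6 genes overlapped. The fitted changes ran from 1.15 ± 0.63 log2 units for Bmp15 to 1.39 ± 0.65 for Zp2, with a median of 1.30 against 0.13 over all genes. By edgeR 0 of 6 were called, where 47.8% of all genes were called in either direction, and DESeq2 and voom also called 0. An unadjusted edgeR p under 0.05 was reached by 2, Zp2 and Zp3. The share of all genes under that unadjusted cut is not given here. Without cumulus replicate 2 of 4 h, 3 were called (Fgf8, Zp2 and Zp3, edgeR adjusted p 0.0388 to 0.046). Without both the low library of 0 h and the high library of 4 h, an alternative chosen after seeing the data, all 6 changes were below 0, from -0.17 for Gdf9 to -0.41 for Fgf8.

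Between 4 and 12 h the 6 transcripts all but left the cumulus libraries. Counts of Gdf9 fell to 77, 135 and 70, which is 2.28, 3.96 and 1.85 CPM. Bmp15 was down to 16, 16 and 8 counts (0.473, 0.469 and 0.211 CPM). A single Fgf8 read was counted over the 3 libraries, in replicate 1. These 3 ligand transcripts had summed to 35495, 22838 and 459 counts in the 3 cumulus libraries of 0 h.

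The zona transcripts fell further than Gdf9. Zp1 had 0 counts in all 3 cumulus libraries at 12 h, which allows up to between 0.0792 and 0.0887 CPM in a library. Zp2 had 4, 4 and 0 counts, and Zp3 1, 3 and 6. At 0 h the same genes had summed to 9467, 17044 and 17961 counts.

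Ratios of pooled, scaled counts put sizes on the fall from 0 to 12 h, with exact 95% intervals for counting error only. Gdf9 was 102 times lower (91.0 to 115) and Bmp15 464 times lower (341 to 650). For Fgf8 the ratio was 373 (66.7 to 14774), wide because it rests on 1 count at 12 h. Zp1 was at least 2566-fold lower, with 3 counts over the group as the floor, Zp2 1732 times lower (879 to 4013) and Zp3 1460 times lower (794 to 3046). The intervals of Gdf9 and Bmp15 lie apart from each other and from those of Zp2 and Zp3. Against 4 h the ratios were 240 (213 to 270) for Gdf9, 970 (712 to 1358) for Bmp15, 800 (143 to 31639) for Fgf8, at least 5986 for Zp1, 4261 (2162 to 9870) for Zp2 and 3343 (1818 to 6972) for Zp3.

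All 6 were called lower at 12 h than at 0 h in cumulus cells, as were 32.9% of all genes, with a median fitted change of -9.58 log2 units against -0.09 over all genes. The change was -6.59 ± 0.83 for Gdf9 (edgeR adjusted p 2.24e-06), -8.77 ± 0.98 for Bmp15 (4.87e-07) and -8.04 ± 1.08 for Fgf8 (4.55e-06). For Zp2 it was -10.61 ± 1.19 (edgeR adjusted p 5.07e-07) and for Zp3 -10.39 ± 1.08 (2.06e-07). Zp1 also passed the test (edgeR adjusted p 2.01e-06); its fitted change depends on the prior count, because its 12 h group is at 0, and the bound above stands in for it. Against 4 h, all 6 were called lower as well (31.3% of all genes), from -7.90 ± 0.87 for Gdf9 to -12.00 ± 1.20 for Zp2 among the genes with counts.

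Mural libraries held on to their low level. Gdf9 had 24.6, 43.8 and 109 CPM at 0 h, 29.0, 45.8 and 38.7 CPM at 4 h and 55.6, 22.6 and 35.7 CPM at 12 h. Zp3 had 13.5, 22.7 and 54.0, then 14.3, 20.7 and 21.0, then 27.0, 12.0 and 19.1 CPM. The wide spread of the 0 h group came from replicate 3, the highest mural library for all 6 genes. Group means of Bmp15 were 37.5 ± 27.9, 22.0 ± 6.67 and 24.9 ± 11.5 CPM (SD, n = 3) at 0, 4 and 12 h. Those of Zp1 were 16.0 ± 11.2, 10.5 ± 1.69 and 12.3 ± 5.61 CPM, and those of Zp2 38.8 ± 28.4, 25.2 ± 4.88 and 25.6 ± 8.73 CPM. The ranges overlapped between all times for these 5 genes. Fgf8 was at 0.544 ± 0.270, 0.291 ± 0.0905 and 0.245 ± 0.0672 CPM, and its 12 h range lay below its 0 h range.

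In the 3 comparisons of times within mural cells edgeR called 0 of 6, where 45.1% of all genes were called between 0 and 4 h, 34.5% between 4 and 12 h and 40.7% between 0 and 12 h, in either direction. None had an unadjusted p under 0.05, and DESeq2 and voom also called 0 of 6 in each. The fitted changes from 0 to 12 h ran from -0.38 ± 0.67 log2 units (Zp1) to -1.13 ± 0.72 (Fgf8, edgeR adjusted p 0.238), and without mural replicate 3 of 0 h they were above 0 for all but Fgf8. The SEs of these mural comparisons were 0.61 to 0.78 log2 units, so changes of that size could not have been detected.

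At 12 h the order of the cell types was therefore the opposite of that at 0 and 4 h, with no overlap for any of the 6. Overlap among other genes is again not given. Cumulus libraries had at most 3.96 CPM of Gdf9 and mural libraries at least 22.6 CPM. For Bmp15 the nearest libraries had 0.473 and 13.5 CPM, and for Zp3 0.158 and 12.0 CPM. Only for Fgf8, at 0.0296 against 0.169 CPM, were both sides of the gap within a few counts, 1 against 6. All 6 were called lower in cumulus than in mural libraries, as were 20.5% of all genes: Gdf9 by -3.82 ± 0.75 log2 units (edgeR adjusted p 0.000657), Bmp15 by -6.02 ± 0.93 (6.74e-05), Fgf8 by -4.29 ± 1.30 (0.0146), Zp2 by -8.34 ± 1.19 (2.89e-05) and Zp3 by -7.63 ± 1.09 (2.77e-05), with Zp1, at 0 counts in cumulus libraries, passing as well (0.000117). With group weights in limma's voom the zona genes missed the threshold (adjusted p 0.0577 to 0.0777) and 3 of 6 were called, and Fgf8 missed it in edgeR without cumulus replicate 2 or 3 of 12 h (adjusted p 0.0509 and 0.056).

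**Figure D2:**
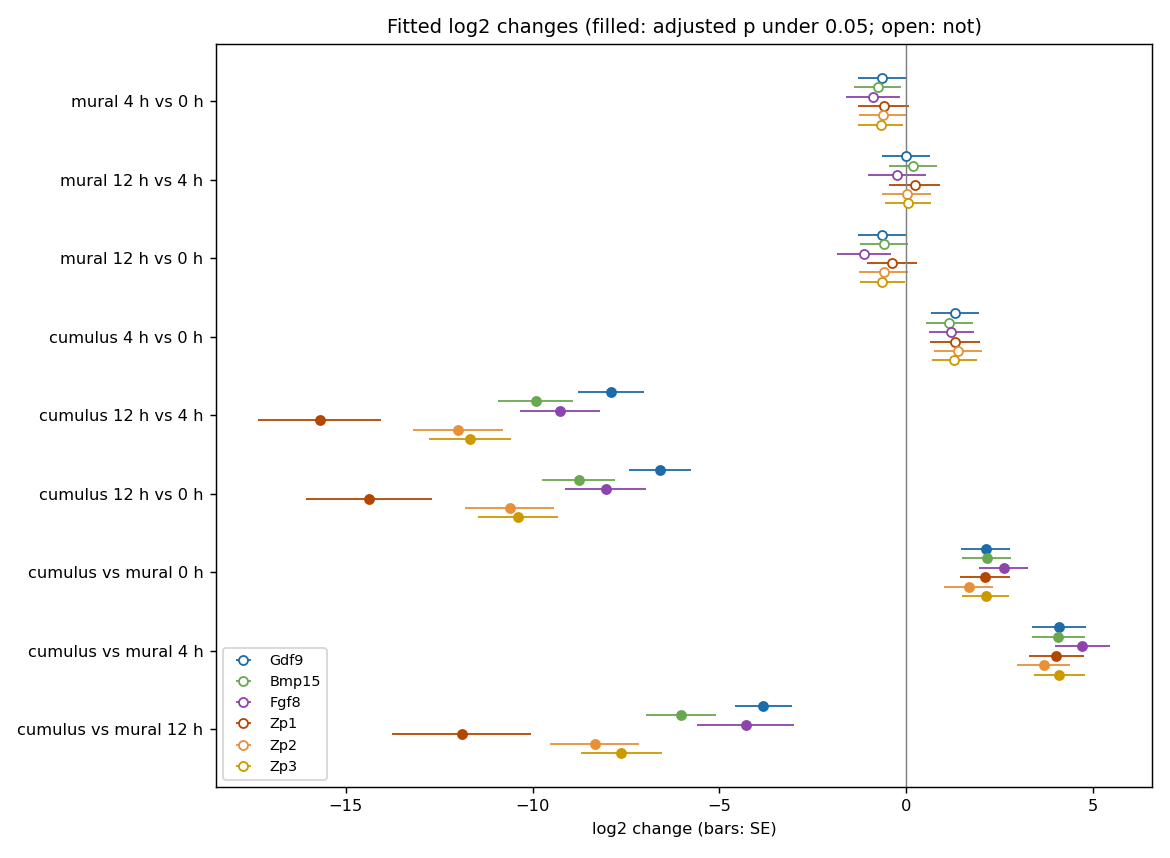
Fitted log2 changes of the 6 genes in the 9 comparisons of 2 groups, with SE as bars; filled points passed an edgeR adjusted p of 0.05 and open points did not. The 3 mural comparisons lie near 0, cumulus lies above mural at 0 and 4 h and below it at 12 h; the points for Zp1 with cumulus 12 h, a group at 0 counts, depend on the prior count.

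The change from 0 to 12 h differed between the cell types for all 6 genes, tested as the interaction of cell type and time, where 20% of all genes were called lower in the same sense. The difference, cumulus change minus mural change, was -5.95 ± 1.001 log2 units for Gdf9 (edgeR adjusted p 0.000166), -8.17 ± 1.15 for Bmp15 (2.86e-05) and -6.91 ± 1.40 for Fgf8 (0.000867). It was -10.01 ± 1.39 for Zp2 (edgeR adjusted p 2.58e-05) and -9.76 ± 1.27 for Zp3 (1.3e-05), and Zp1 passed as well (5.67e-05). For the change from 0 to 4 h, edgeR called 0 of 6, where 14% of all genes were called in either direction, and DESeq2 and voom also called 0. The fitted differences ran from 1.91 ± 0.94 (Zp1) to 2.10 ± 0.94 (Fgf8). An unadjusted edgeR p under 0.05 was reached by 5 of 6. The share of all genes under that unadjusted cut is not given here, and the 6 genes move together.

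Ratios of counts within a library do not depend on how the library was scaled. Across the 15 libraries other than cumulus 12 h, in which the summed level of the 6 genes ran from 71.6 to 3721 CPM, the highest ratio to Gdf9 was 1.26 times the lowest for Bmp15, 1.25 times for Zp3 and 1.31 times for Zp1. It was 1.85 times the lowest for Zp2 and 5.35 times for Fgf8, from 0.00303 to 0.0162. Bmp15 counts relative to Gdf9 counts were 0.632 ± 0.015, 0.575 ± 0.051 and 0.648 ± 0.044 (SD, n = 3) in mural libraries at 0, 4 and 12 h, and 0.625 ± 0.045 and 0.602 ± 0.050 in cumulus libraries at 0 and 4 h. Zp3 to Gdf9 was 0.519 ± 0.027, 0.495 ± 0.045 and 0.517 ± 0.027 in mural and 0.522 ± 0.040 and 0.490 ± 0.013 in cumulus libraries. Both ratios overlapped between the cell types at 0 and 4 h.

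Zp2 differed between the cell types. Relative to Gdf9 it stood at 0.703, 0.641 and 0.649 in the mural libraries of 0 h and at 0.409, 0.497 and 0.474 in the cumulus libraries of 0 h. At 4 h the mural libraries had 0.677, 0.623 and 0.711 and the cumulus libraries 0.501, 0.451 and 0.514. At both times every cumulus library lay below every mural library. The 3 mural libraries of 12 h had 0.603, 0.719 and 0.756, a mean of 0.693 ± 0.080 (SD, n = 3). They spread wider than the earlier mural libraries but also lay above every cumulus library of 0 and 4 h.

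Over 0 and 4 h, the log2 ratio of Zp2 to Gdf9 was lower in cumulus libraries by 0.50, a 1.41-fold difference (-0.50, cumulus minus mural). In an exact two-sided permutation of the cell type labels within each time, with 400 arrangements, this gave p 0.005, the smallest such a test can give, and 0.0125 after Benjamini-Hochberg adjustment over the 15 pairs of genes. The same adjusted exact p of 0.0125 was reached by Zp2 to Bmp15 (-0.52), Zp2 to Zp1 (-0.40), Zp2 to Fgf8 (-0.99) and Zp3 to Zp2 (0.49), so by each of the 5 pairs that contain Zp2. One other pair, Zp1 to Fgf8, passed too (-0.59), but not with 0.5 added to each count (adjusted exact p 0.05). The test was added after the ratios had been seen, and pairs that share a gene are not independent.

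The remaining 9 pairs did not pass. The closest to 0 was Zp3 to Gdf9, with a cumulus minus mural difference of -0.001 log2 units (exact permutation p 0.99). Bmp15 to Gdf9 differed by 0.02 (exact permutation p 0.67). Fgf8 to Gdf9 averaged 0.0106 and 0.00759 in mural and 0.0130 and 0.0124 in cumulus libraries at 0 and 4 h; its difference of 0.50 had an exact permutation p of 0.045 and an adjusted p of 0.0833, and its ranges overlapped. In mural libraries the Fgf8 values rest on 6 to 39 counts each.

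**Figure D3:**
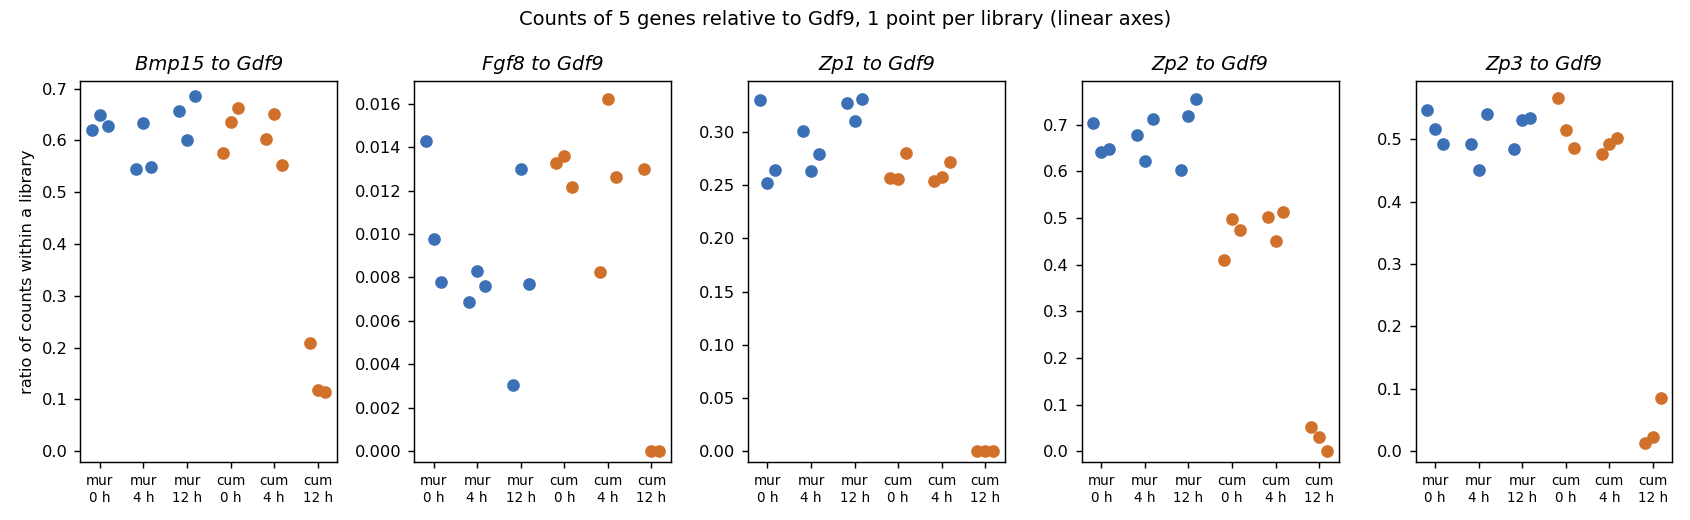
Counts of 5 genes relative to Gdf9 counts in each library, 1 point per library on linear axes, for mural (mur) and cumulus (cum) groups. Zp2 alone separates cumulus from mural libraries at 0 and 4 h, and at 12 h the cumulus libraries lie below all others for Bmp15, Zp1, Zp2 and Zp3.

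In the cumulus libraries of 12 h the proportions were no longer those of the other libraries. Bmp15 to Gdf9 had dropped to 0.208, 0.119 and 0.114, a mean of 0.147 ± 0.053 (SD, n = 3), against a lowest value of 0.544 elsewhere. Zp3 to Gdf9 was 0.0130, 0.0222 and 0.0857, against at least 0.451 elsewhere. Gdf9 transcripts made up most of what remained, 77 of 99, 135 of 158 and 70 of 84 counts of the 6 genes.

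Gdf9 has a close neighbour, Uqcrq, a subunit gene of respiratory complex III, which starts 191 bases away on the opposite strand and does not overlap it. The cumulus libraries had 106, 91.0 and 105 CPM of Uqcrq at 12 h, between 113 and 148 CPM at 4 h and between 168 and 219 CPM at 0 h; mural libraries had 53.1 to 68.9 CPM. Replicate 2, with the most Gdf9 of the 12 h cumulus libraries, had the least Uqcrq. Whether reads of the neighbour entered the Gdf9 count was not tested, and the strand setting of the counting is not given in the sources used here.

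Other transcripts known from the oocyte moved in parallel. The sum over 18 such genes (among them Ooep, Nlrp5, Padi6 and Zar1, which encode maternal proteins of the egg) ran from 148 to 640 CPM in mural libraries, from 451 to 7638 CPM in cumulus libraries of 0 and 4 h, and from 40.0 to 46.2 CPM in those of 12 h. The summed level of the 6 genes was between 0.429 and 0.537 of that sum in 15 libraries. In the cumulus libraries of 12 h it was 0.0732, 0.1003 and 0.0527 of it, below all others. At that time most of the sum came from Tle6 alone (29.6, 31.7 and 31.7 CPM). Over the other 17 genes, a choice made after seeing the data, the ratio was 0.282, 0.319 and 0.214 in the cumulus libraries of 12 h against 0.509 to 0.627 in the 15 others, so it was still the lowest but the gap was smaller.

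**Figure D4:**
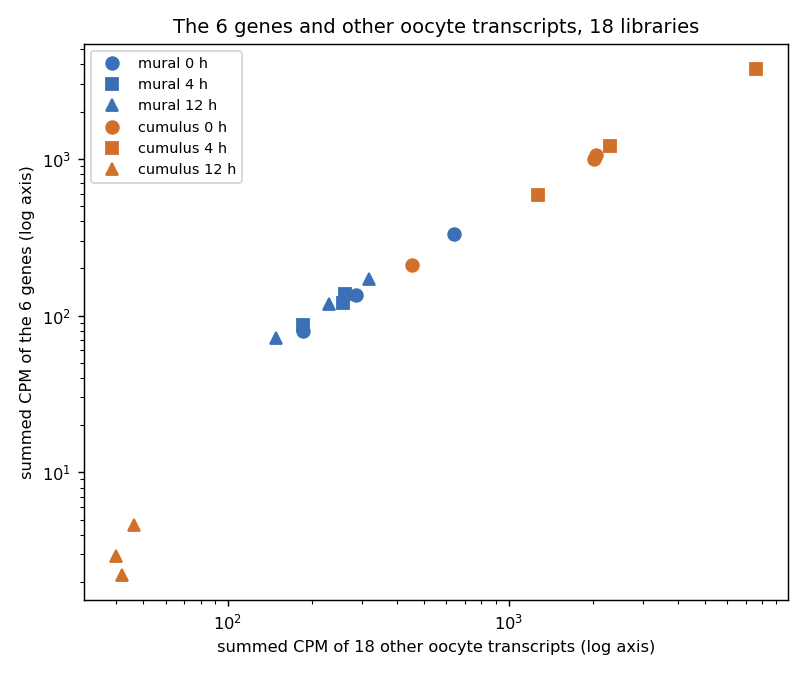
Summed CPM of the 6 genes against summed CPM of 18 other oocyte transcripts, both axes log, 1 point per library with colour for cell type and shape for time. The 15 libraries other than cumulus 12 h lie along 1 line, with the 6 genes at 0.429 to 0.537 of the other sum, and the 3 cumulus 12 h libraries, in which Tle6 makes up most of the other sum, lie below it.

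How much of the 0 h level was left in cumulus libraries at 12 h varied by gene. Of the pooled, scaled counts, 0.977% remained for Gdf9, 0.268% for Fgf8 on a single count, 0.215% for Bmp15, 0.0685% for Zp3, 0.0577% for Zp2 and 0% for Zp1. Among the 18 other transcripts, Khdc3, part of the subcortical maternal complex, also had 0 counts, and Padi6, needed for the egg's cytoplasmic lattices, kept 0.0590%. At the other end were Tle6 with 20.05%, the receptor gene Gpr3 with 13.4% and the germ cell helicase gene Ddx4 with 11.9%. What was left of Tle6 (29.6 to 31.7 CPM) lay within its range in mural libraries (25.0 to 81.3 CPM). Which cells the remaining transcripts came from was not tested. The 3 zona genes were among the 5 lowest of the genes compared.

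**Figure D5:**
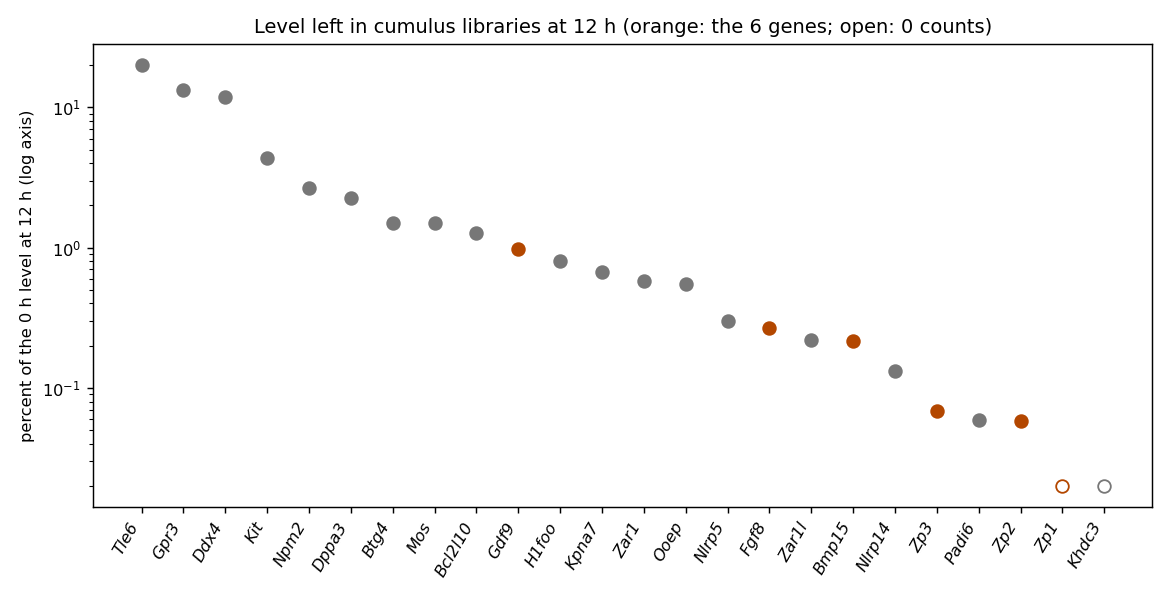
Pooled, scaled cumulus counts at 12 h as a percent of those at 0 h, on a log axis, for the 6 genes (orange) and 18 other oocyte transcripts (grey). Open points had 0 counts at 12 h and are drawn at the foot of the axis. Gdf9 lies mid-range at 0.977%, and the 3 zona genes lie at the low end with Padi6 and Khdc3.

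Relative to Gdf9, Zp2 was not the only oocyte transcript to differ in proportion between the cell types. Of the 18 other oocyte transcripts, 5 had lower ratios to Gdf9 in every cumulus library than in every mural library at both 0 and 4 h. These were Nlrp5 (by -0.36 and -0.44 log2 units), Padi6 (-0.23 and -0.15), Nlrp14 (-0.34 and -0.18), Ddx4 (-1.26 and -1.99) and Kit (-0.73 and -1.51), the last a receptor gene with other sources in the ovary. Another 4 were higher at both times, Ooep (0.48 and 0.18), Zar1 (0.40 and 0.36), H1foo (0.50 and 0.81) and Bcl2l10 (0.66 and 0.56). The values describe these libraries and were given no test.

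Across all 18 libraries the 6 genes had similar patterns, described by Pearson's r of log2(CPM + 0.1), for which no p is given because libraries share groups, depth and the source of the RNA. The pairs ran from 0.859 (Zp2 with Fgf8) to 0.998 (Zp3 with Zp1). Within the 9 mural libraries, pairs without Fgf8 had an r of 0.974 to 0.995, while pairs with Fgf8, whose mural counts are low, had 0.505 to 0.635. The genes most like the mean pattern of the 6 among all those tested were Nlrp4f (r 0.9987), Umodl1 (0.9983), Fbxw21 (0.9978), Nobox (0.9978) and Khdc1b (0.9975). Nearest to Zp2 alone were Padi6 (0.9991) and Nlrp14 (0.9970), and nearest to Zp1 and to Zp3 alone was Eif4e1b (0.9980 and 0.9982).

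The oocyte transcription factor genes fell in the same cumulus libraries. Of 8 on the list, 7 were tested; Sohlh1 was not, with 0 to 14 counts per group. All 7 were called lower at 12 h than at 0 h in cumulus cells (32.9% of all genes), with a median of -7.17 log2 units, led by Lhx8 (-9.44 ± 1.28, edgeR adjusted p 5.24e-06) and Nobox (-9.10 ± 1.10, 1.3e-06). Taf4b and Nr6a1 fell far less than the rest, with 30.3% and 37.7% of their pooled, scaled 0 h counts left at 12 h. Figla, the factor of the zona E-box, had 85 counts over the cumulus libraries at 0 h, 211 at 4 h and 0 at 12 h. At 0 h, 3 of the 7 were higher in cumulus than in mural libraries and none was lower (21.5% and 25.3% of all genes), with Lhx8 at 2.37 ± 0.73 (edgeR adjusted p 0.0132) and Nobox at 2.13 ± 0.64 (0.0121).

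Among 5 genes that cleave or protect the zona or lie with the oocyte-secreted proteins, 4 were lower and 1 higher at 12 h than at 0 h in cumulus cells, where 32.9% of all genes were lower and 31.2% higher. Oosp2 (-8.60 ± 1.19, edgeR adjusted p 6.86e-06) and Oosp3 (-8.40 ± 1.15, 5.61e-06) encode oocyte-secreted proteins. Fetub, which encodes fetuin-B, an inhibitor of the protease that cleaves ZP2, rose by 2.04 ± 0.14 (edgeR adjusted p 5.66e-10). It had risen by 4 h (2.43 ± 0.14, edgeR adjusted p 1.79e-10), when it was the only gene of the 5 to be called.

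The genes through which GDF9 and BMP15 act changed in both directions. Of 23 receptors, SMADs, antagonists and processing enzymes, 12 were higher and 8 lower at 12 h than at 0 h in cumulus cells, where 31.2% of all genes were higher and 32.9% lower; the list's median was 0.39 against -0.09 over all genes. The proprotein convertase gene Pcsk5 rose most (4.98 ± 0.19, edgeR adjusted p 4.09e-13), and the type I receptor gene Acvr1c by 4.51 ± 0.40 (2.47e-08). Nog, which encodes the BMP antagonist noggin, fell by 4.46 ± 0.43 (edgeR adjusted p 7.49e-08) and Smad9 by 1.46 ± 0.25 (7.07e-05). The receptors of the ligands, named here for their role with their values known, split as well. Tgfbr1, the type I receptor used by GDF9, rose by 4.01 ± 0.20 (edgeR adjusted p 1.04e-11), while Bmpr1b, that of BMP15, fell by 1.43 ± 0.13 (2.75e-08) and the type II receptor gene Bmpr2 by 0.45 ± 0.16 (0.025).

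At 0 h, 4 of the 23 were higher in cumulus than in mural libraries and 8 lower, where 21.5% of all genes were higher and 25.3% lower, with a median of -0.16 against -0.03. Nog (3.75 ± 0.41, edgeR adjusted p 1.07e-06) and the inhibitory SMAD gene Smad7 (2.30 ± 0.21, 1.44e-07) led those that were higher. Pcsk6 (-2.90 ± 0.19, edgeR adjusted p 3.06e-09) and Acvr1c (-2.69 ± 0.40, 2.94e-05) led those that were lower.

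FGF receptor and feedback genes were also divided. Of 16, 9 were higher and 6 lower at 12 h than at 0 h in cumulus cells, with a median of 1.31 against -0.09 over all genes, of which 31.2% were higher and 32.9% lower; the share of the list that was lower is thus near that of all genes. Dusp6, a phosphatase that turns off ERK, rose by 7.64 ± 0.37 (edgeR adjusted p 1.14e-11) and the transcription factor gene Etv4 by 7.24 ± 0.52 (1.17e-09). The feedback inhibitor genes Spry1 (-6.63 ± 1.05, edgeR adjusted p 2.89e-05) and Spry4 (-3.45 ± 0.64, 0.000151) fell. Their levels across cumulus libraries resembled those of the oocyte transcripts. Spry4 had 13.2, 66.9 and 68.5 CPM at 0 h, 74.8, 51.4 and 253 CPM at 4 h and 5.26, 3.37 and 4.97 CPM at 12 h. Spry1 had 1.28, 4.06 and 4.04, then 3.37, 1.97 and 17.8 CPM, and 3 counts over the 3 libraries of 12 h. Replicate 1 was the low library at 0 h and replicate 3 the high one at 4 h, as for the 6 genes, and which cells these transcripts came from was not tested. Between 0 and 4 h, when 25% of all genes rose and 22.8% fell, 10 of the 16 rose and 3 fell. Before hCG, 2 were higher in cumulus libraries, Spry4 (2.69 ± 0.61, edgeR adjusted p 0.00176) and Fgfr4 (0.54 ± 0.20, 0.036), and 9 were lower, led by Etv4 (-2.67 ± 0.54, 0.000611) and Dusp6 (-2.49 ± 0.34, 1.55e-05), where 21.5% of all genes were higher and 25.3% lower.

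Cumulus genes known to depend on oocyte factors were counted last; 22 of 23 matched a row and were tested. At 0 h, 12 were higher in cumulus than in mural libraries and 2 lower, with a median of 0.62 log2 units against -0.03 over all genes, of which 21.5% were higher and 25.3% lower. The glycolytic genes Pfkp (1.98 ± 0.17, edgeR adjusted p 8.56e-08) and Ldha (1.61 ± 0.20, 4.71e-06) led. From 0 to 12 h in cumulus cells 10 rose and 7 fell, where 31.2% of all genes rose and 32.9% fell, so the share that fell is near that of all genes. The expansion genes Ptx3 (11.69 ± 0.50, edgeR adjusted p 1.87e-12) and Ptgs2 (11.07 ± 0.59, 3.68e-11) rose most; the amino acid transporter gene Slc38a3 (-6.47 ± 0.38, 1.16e-10) and Amh (-3.90 ± 0.46, 9.41e-07) fell most. Their relation to the level of the ligand transcripts was not tested.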

How the data were processed

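The members and the lists of other genes were chosen with earlier results of these data known. Poly(A)-selected RNA was sequenced, per the labels, with a stranded kit on an Illumina instrument. The deposited values are unnormalized whole-number counts per gene of reads that mapped uniquely, made by the authors in CLC Genomics Workbench with default parameters per the series' design text; the submitters' processing notes name GRCm38. Its version, the gene annotation and any strand option are not stated in those sources. All columns were used.

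Tests used edgeR 4.0.16 in R 4.3.3: filterByExpr with a minimum count of 10 (19941 of 41325 entries, 99.96% of reads), TMM scaling (factors 0.849 to 1.177), and robust quasi-likelihood fits of 6 group means to 18 libraries (32.2 M to 47.9 M counts), with Benjamini-Hochberg adjustment at 0.05. SE is the log2 change over the square root of F. The fit was tested on simulated data. Alternatives used RLE factors, library totals, no filter, DESeq2 1.42.0, limma 3.58.1 (voom with group weights), the compared groups alone, the replicate number as a block, and each library left out. Ratios within libraries used exact permutation over 15 pairs, added after seeing the data. Besides the 6 genes, each list had at most 2 genes named per direction, by largest called change, and any gene not tested; further genes (such as Figla, Tle6, Tgfbr1, Bmpr1b and Bmpr2) were named for their role or level with their values known. Counts per kilobase used merged exons of GENCODE M21 (GRCm38).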

Additional observations from a re-analysis of the deposited data

Results flagged for a closer look

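The change from 0 to 12 h after hCG went further down in cumulus than in mural cells for all 6 genes, by a test of the difference itself (edgeR's quasi-likelihood interaction test). Cumulus change minus mural change was -5.95 log2 units for Gdf9, -8.17 for Bmp15, -6.91 for Fgf8, -10.01 for Zp2 and -9.76 for Zp3. For Zp1 the fitted value was -14.01, which depends on the prior count because the cumulus libraries of 12 h had 0 counts. The 6 genes move together, so these are not 6 independent results.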

How the results depend on the processing

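Calls in cumulus cells were stable: 6 of 6 fell from 0 to 12 h and from 4 to 12 h, 6 of 6 were higher than in mural cells at 4 h, and 6 of 6 differed between cell types over 0 to 12 h, under every alternative run. The count of genes higher in cumulus cells at 0 h went from 6 to 1 with no filter on low counts and to 1 with the compared groups alone, and ran from 1 to 6 with 1 library left out. At 12 h, 3 of 6 differed between cell types with voom, and with the compared groups alone 5 did, Fgf8 not passing the filter there. For cumulus 4 h against 0 h the count ran from 0 to 3 with 1 library left out. The cause was not tested.

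Changes of sign concerned only changes that were not called. Mural 12 h against 4 h: Gdf9 -0.0163 (RLE factors), -0.0157 (DESeq2), -0.0767 (voom) and -0.0027 (compared groups alone), Zp2 -9e-04 (RLE factors), -2e-04 (DESeq2) and -0.0345 (voom), Zp3 -0.0158 (voom). With 1 library left out, log2 changes of mural 12 h against 4 h ran from -0.38 to 0.27 for Gdf9, -0.21 to 0.47 for Bmp15, -0.16 to 0.51 for Zp1, -0.22 to 0.26 for Zp2 and -0.26 to 0.30 for Zp3. Those of mural 4 h against 0 h ran from -1.08 to 0.12 for Gdf9, -0.98 to 0.11 for Zp1, -1.03 to 0.13 for Zp2 and -1.10 to 0.0242 for Zp3, and those of 12 h against 0 h from -1.03 to 0.17 for Gdf9, -0.99 to 0.20 for Bmp15, -0.76 to 0.38 for Zp1, -0.97 to 0.19 for Zp2 and -1.005 to 0.12 for Zp3; each upper end is without mural replicate 3 of 0 h. Without cumulus replicate 1 of 0 h and replicate 3 of 4 h together, added after seeing the data, cumulus 4 h against 0 h gave -0.17 for Gdf9, -0.24 for Bmp15, -0.41 for Fgf8, -0.24 for Zp1, -0.17 for Zp2 and -0.22 for Zp3.

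Over all genes, cumulus 4 h against 0 h gave 9532 calls, 6193 with voom and 5509 with the compared groups alone; the difference between cell types over 0 to 4 h gave 2800, 1618, 1564 and, without cumulus replicate 2 of 4 h, 4272. Whether equal replicate numbers pair libraries was not tested. Of 45 pairs with the same number, 14 had deviations correlated above 0.1 (range -0.493 to 0.555). Their median correlation was 0.0345, against -0.0134 for pairs with different numbers. With the replicate number as a block the count of the 6 genes called was 6 or 0 in each comparison, as without it, and total calls for cumulus against mural at 0 h were 9550; 10 of 18 libraries correlated best with their own number. Of the pair ratios, those with Zp2 kept their calls under every alternative. Their ranges were already separate at 0 and 4 h, which leaving out a library cannot undo, so those runs are weak support. Zp1 to Fgf8 lost its call under some alternatives. The Fgf8 ratios to Gdf9, Bmp15 and Zp3 gained one without mural replicate 1 of 0 h or cumulus replicate 1 of 4 h. Depth limits Fgf8 in mural libraries (6 to 39 counts) and all but Gdf9 and Bmp15 in cumulus libraries at 12 h (0 to 6).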
